A study of Mus musculus with 2 samples.

Results

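Vsig4 and 9 other genes by which mouse Kupffer cells are recognised (Clec4f, Cd5l, Timd4, Marco, Folr2, Fcna, Vcam1, Il18bp and Clec1b) were followed through single-cell RNA profiles of tumour-bearing livers. They were chosen by symbol from knowledge of Kupffer cells, and each of the 10 matched 1 row among the 31253 genes of the count tables. Live CD45+ single cells had been sorted from livers of mice bearing B16F10 metastases (B16F10 is a melanoma line of C57BL/6 origin) and profiled by droplet sequencing of transcript 5′ ends. There was 1 library from Vsig4 knockout mice (Vsig4-/-, Vsig4 KO) and 1 library from wild-type (WT) mice, both with tumours. The labels do not state the number, age or sex of the mice behind each library, whether the knockout was limited to a cell type, or any treatment beyond the tumours. By its title the study asks about VSIG4 on Kupffer cells and the control of T cells.

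Kupffer cells are the resident macrophages of the liver. They line the sinusoids and clear particles, microbes and ageing blood cells from the portal blood. VSIG4, a complement receptor of the immunoglobulin superfamily, binds C3 fragments on such particles and also acts as an inhibitory ligand for T cells. After injury or in tumours, monocyte-derived macrophages enter the liver and may acquire some of the Kupffer cell genes over time, so the set of genes that a macrophage carries is used to tell resident from recruited cells.

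The windows around the transcription starts of Vsig4, Clec4f, Cd5l and Fcna are shown because these genes are the knockout target, the pair that set the Kupffer cell gate and the member richest in the PU.1 core. PU.1 is the factor on which all macrophages depend. Each window holds 250 bases before and 50 bases after the start, from RefSeq on GRCm38.p6, read along the gene's strand. Capitals mark GAGGAA, the PU.1 core, or its reverse complement. The Vsig4 window lies at chrX:96293389-96293688 on the minus strand, that of Clec4f at chr6:83656067-83656366 on the minus strand, that of Cd5l at chr3:87357631-87357930 on the plus strand and that of Fcna at chr2:25627925-25628224 on the minus strand.
Vsig4: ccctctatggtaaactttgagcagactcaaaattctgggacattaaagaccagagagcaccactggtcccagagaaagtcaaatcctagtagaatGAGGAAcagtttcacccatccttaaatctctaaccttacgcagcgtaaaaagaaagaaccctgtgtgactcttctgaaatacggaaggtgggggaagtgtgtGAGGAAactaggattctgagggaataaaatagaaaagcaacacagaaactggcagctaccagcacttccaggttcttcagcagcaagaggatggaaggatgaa
Clec4f: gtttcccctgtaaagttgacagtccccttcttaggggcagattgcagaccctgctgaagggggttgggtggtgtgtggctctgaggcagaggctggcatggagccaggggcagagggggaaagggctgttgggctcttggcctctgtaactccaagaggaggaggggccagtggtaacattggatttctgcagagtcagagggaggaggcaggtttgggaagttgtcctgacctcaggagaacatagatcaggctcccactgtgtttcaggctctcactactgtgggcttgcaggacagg
Cd5l: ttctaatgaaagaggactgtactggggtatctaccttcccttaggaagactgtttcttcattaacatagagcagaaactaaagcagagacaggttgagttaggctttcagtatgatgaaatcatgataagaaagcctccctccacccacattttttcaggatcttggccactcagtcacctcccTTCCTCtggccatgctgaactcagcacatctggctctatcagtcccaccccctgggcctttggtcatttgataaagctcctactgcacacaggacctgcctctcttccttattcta
Fcna: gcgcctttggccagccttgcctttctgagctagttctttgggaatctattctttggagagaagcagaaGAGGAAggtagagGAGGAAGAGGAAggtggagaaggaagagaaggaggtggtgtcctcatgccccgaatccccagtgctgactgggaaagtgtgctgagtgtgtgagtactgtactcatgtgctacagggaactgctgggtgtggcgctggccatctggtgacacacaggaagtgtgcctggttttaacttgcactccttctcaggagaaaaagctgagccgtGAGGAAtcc
Of the 10 members, 9 had such a window and Folr2 had 2, which made 10 windows; Vcam1 is named only. GAGGAA stood in 4 of these 10 windows, with 2 copies in Vsig4, 4 in Fcna and 1 each in Cd5l and Marco, against 28.3% of 32851 windows of the genome. TGCTGA, the core that MAF factors bind, stood in 7 windows (Vsig4, Clec4f, Cd5l, Timd4, Fcna and both of Folr2), against 19.5% of all windows. TGGGAA, bound by RBPJ, stood in 3 windows against 25.6%, and AGGTCA, the core that many nuclear receptors bind, in 2 against 16.3%. The AP-1 sites TGAGTCA and TGACTCA stood in 1 window, of Folr2, against 5.20%, and the E-box CACGTG in 0 against 7.15%. All motifs were searched on both strands, none of them contains another, and a match is a description of letters and not of a bound site.

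The Vsig4 KO library held 5799 barcodes with 25119175 UMIs and the WT library 6929 barcodes with 28537154 UMIs. After filtering, 5479 Vsig4 KO cells (median 3260 UMIs) and 6491 WT cells (median 3034 UMIs) were kept. Levels are sums of UMIs over cells, scaled to UMIs per 1000000 UMIs of the same cells (CPM). In such sums fewer cells of a type and less RNA per cell cannot be told apart. With 1 library per genotype there was no test. All intervals are at 95% and cover counting error only, so a difference between mice, sorts or libraries cannot be told apart from one between genotypes. Ratios are Vsig4 KO over WT, and a gene was counted as apart when the levels differed by at least 1.5-fold with at least 20 UMIs over both libraries. Both libraries shared 54 barcodes, 1 of them in a Vsig4 KO and 1 in a WT Kupffer macrophage.

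The gates showed that cells with Kupffer cell genes were few in both libraries. Macrophages, defined by at least 5 UMIs of the complement genes C1qa, C1qb and C1qc together, were 208 Vsig4 KO cells (3.80%, 3.31 to 4.34) and 353 WT cells (5.44%, 4.90 to 6.02), a ratio of shares of 0.698 (0.585 to 0.831). Cells with at least 1 UMI of Clec4f or Cd5l numbered 33 in Vsig4 KO (0.602%, 0.415 to 0.845) and 43 in WT (0.662%, 0.480 to 0.891). Of these, 23 Vsig4 KO and 35 WT cells were also macrophages by that gate. These are abbreviated to Kupffer macrophages, a name for the gate and not for a cluster. They made up 11.1% (7.14 to 16.1) of Vsig4 KO and 9.92% (7.0 to 13.5) of WT macrophages, a ratio of 1.12 (0.629 to 1.94). The interval spans a lower as well as a higher share in Vsig4 KO. Tissue digestion and the gate on CD45 bear on each of these shares.

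Vsig4 was found almost wholly in WT Kupffer macrophages and was not detected in those of the knockout. The gene, ENSMUSG00000044206 on the minus strand of chromosome X (96247203 to 96293438 in mm10), had 0 UMIs in the 23 Vsig4 KO Kupffer macrophages, against 40 UMIs in 16 of 35 WT Kupffer macrophages (303 CPM, 216 to 412). Taking 3 counts for the whole group as the floor, the level was at least 8.65-fold lower in Vsig4 KO (the counting interval of the ratio reached 0.149), and by the same 3 counts 0 of 23 cells allows a share of up to 13% of cells with a UMI. In WT, 12 of the 17 Clec4f-positive macrophages carried 33 of the UMIs and 4 of the 18 macrophages with Cd5l only carried 7. The highest WT cell held 7 Vsig4 UMIs. The knockout library still held 3 Vsig4 UMIs in all kept cells, in 3 cells without Clec4f or Cd5l: 2 cells of the cDC2 class and 1 of the macrophage class, with 9597 to 15466 UMIs each. The WT library held 43 in 19 cells, a ratio of 0.0785 (0.0156 to 0.245). Its 3 UMIs outside the Kupffer macrophages lay in 1 B cell and in 2 cells of the macrophage class. A count per gene cannot show which part of the transcript was read.

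**Figure D1:**
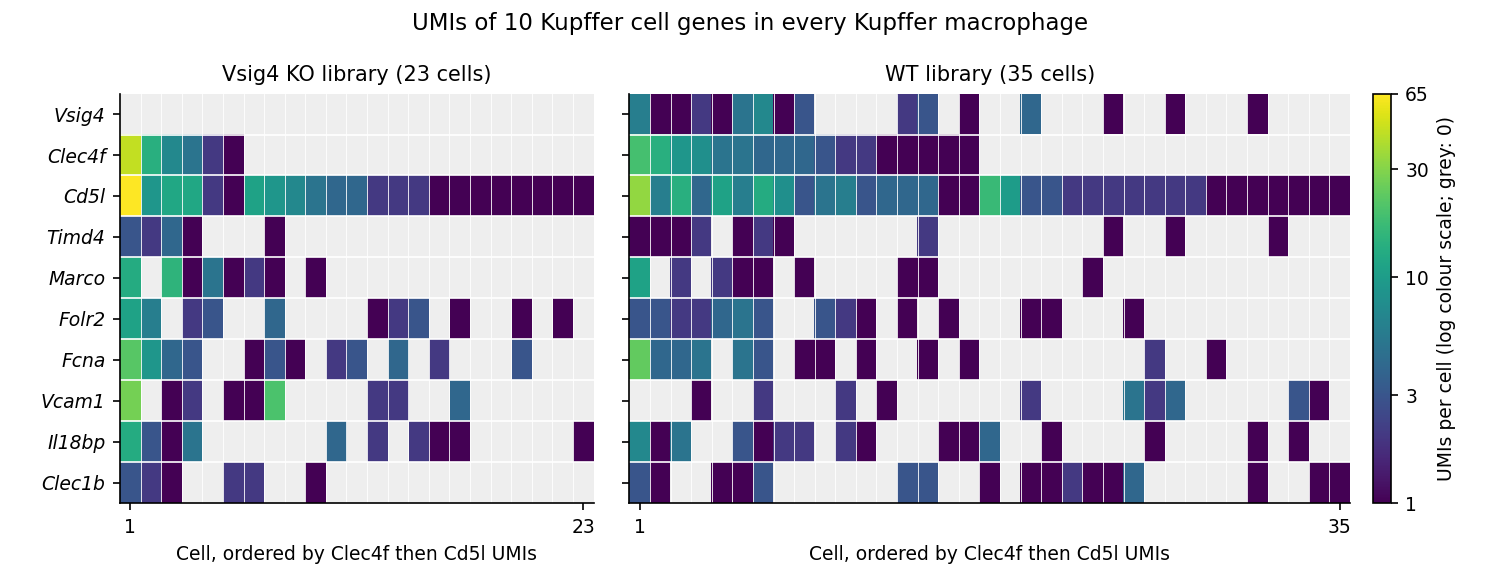
UMIs of the 10 genes (rows) in each of the 23 Vsig4 KO and 35 WT Kupffer macrophages (columns, ordered by Clec4f and then Cd5l UMIs), on a log colour scale with grey for 0. The Vsig4 row is empty in Vsig4 KO and filled in 16 WT cells, and the first cell of each library holds the most Clec4f, Cd5l and Fcna UMIs.

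The genes that most often shared cells with Vsig4 in WT were other members. Over 8991 genes found in 10 to 500 WT cells, the 5 with the highest Jaccard index (cells with both genes over cells with either) were Clec4f at 0.480, Cd5l at 0.348, Marco at 0.333, and Fcna and Timd4 at 0.25 each. Folr2 ranked at 7 and Clec1b at 8, while Il18bp was at 19, with 9 of the 19 Vsig4-positive cells but found in 100 WT cells, and Vcam1 at 22, with 5 of the 19. The measure runs over cells of 1 library, in which deeper cells show more genes.

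Clec4f, a lectin specific to mouse Kupffer cells, and Cd5l, a secreted scavenger protein of tissue macrophages, had close levels over the whole libraries. Clec4f (mm10 chromosome 6, 83644542 to 83656187) had 77 UMIs in 9 Vsig4 KO cells and 85 UMIs in 18 WT cells, a ratio of 1.02 (0.739 to 1.40). Cd5l (chromosome 3, 87357881 to 87371073) had 163 UMIs in 30 Vsig4 KO cells and 196 UMIs in 43 WT cells, a ratio of 0.936 (0.755 to 1.16). Without the cell richest in the gene in each library, the ratio was 0.563 for Clec4f and 0.677 for Cd5l. The macrophage gate, which did not use them, held 94.8% of the Vsig4 KO and 98.8% of the WT Clec4f UMIs, and 95.1% and 91.8% of the Cd5l UMIs. That gate held 5.35% of all Vsig4 KO UMIs and 7.82% of all WT UMIs. Within it the ratio was 1.43 (1.03 to 1.98) for Clec4f and 1.42 (1.14 to 1.77) for Cd5l, both under 1.5-fold. There, 1 Vsig4 KO cell held 44 of 73 Clec4f and 65 of 155 Cd5l UMIs. All 18 Clec4f-positive WT cells also had Cd5l, while in Vsig4 KO 6 of 9 did, and the other 3 lay outside the macrophage gate.

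Within Kupffer macrophages these genes set the gate, and their values are a description. Clec4f was at 852 CPM (668 to 1071) in Vsig4 KO and at 636 CPM (507 to 788) in WT. Cd5l was at 1809 CPM (1535 to 2117) in Vsig4 KO and at 1363 CPM (1171 to 1577) in WT. The Vsig4 KO values leaned on a cell of 8712 UMIs that held 44 of the 73 Clec4f and 65 of the 155 Cd5l UMIs. Without that cell and the WT cell with the most member UMIs (19 Clec4f, 33 Cd5l), the ratio of Clec4f was 0.746 (0.464 to 1.17) in place of 1.34 and that of Cd5l 1.02 (0.779 to 1.34) in place of 1.33.

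Macrophages with Clec4f showed more of the other members per cell, and a lower summed level of recruited-cell genes, than those with Cd5l alone. Clec4f-positive cells were 6 of the 23 Vsig4 KO and 17 of the 35 WT Kupffer macrophages (26.1%, 10.2 to 48.4, and 48.6%, 31.4 to 66.0). With each cell thinned to 1000 UMIs, which left out 4 shallower cells per library, Clec4f was seen in 5 of 19 Vsig4 KO and 9 of 31 WT Kupffer macrophages (26.3% and 29.0%). Thinned to 2000 UMIs, which left out 10 Vsig4 KO and 15 WT cells, it was seen in 2 of 13 and 8 of 20. The 7 members other than Vsig4, Clec4f and Cd5l were detected at a median of 5.5 per Clec4f-positive cell in Vsig4 KO and 3 in WT, and at 2 per Cd5l-only cell in both libraries. Vcam1 in WT ran the other way, at 109 CPM (6 UMIs) in Clec4f-positive and 221 CPM (17 UMIs) in Cd5l-only cells. In Vsig4 KO it was at 1613 CPM (31 UMIs) and 436 CPM (29 UMIs). There, 1 cell held 27 of the 31 UMIs and another 20 of the 29, so no direction is read from the Vsig4 KO values. A list of 15 genes of recruited macrophages and monocytes (among them Ly6c2, Ccr2, Spp1 and Fn1) summed to 520 CPM (249 to 957) in the Clec4f-positive Vsig4 KO cells and to 799 CPM (580 to 1072) in those of WT. In Cd5l-only cells it summed to 3956 CPM (3492 to 4464) in Vsig4 KO and 4755 CPM (4280 to 5268) in WT. Other macrophages stood at 5666 CPM in Vsig4 KO and 5392 CPM in WT. Summed over cells, the Cd5l-only level of the recruited-cell list was thus nearer to that of other macrophages. Single cells held much of these sums of 263 Vsig4 KO and 366 WT UMIs. In WT, 1 cell held 108 Fn1 UMIs. In Vsig4 KO, the highest cells held 49 Arg1, 45 Fn1, 28 Plac8 and 14 Chil3 UMIs. The sums therefore need not describe most Cd5l-only cells. Of the Cd5l-only cells, 8 of the 17 in Vsig4 KO and 7 of the 18 in WT rested on 1 Cd5l UMI.

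Among receptors that take up particles, Marco had a higher level in Vsig4 KO over all kept cells, in macrophages and in Kupffer macrophages. Marco, a scavenger receptor for bacteria and modified lipoproteins (chromosome 1, 120474538 to 120505024), had 54 UMIs in 13 Vsig4 KO cells and 26 UMIs in 13 WT cells, a ratio of 2.34 (1.44 to 3.89). In Kupffer macrophages it had 39 UMIs in 8 of 23 Vsig4 KO cells (455 CPM, 324 to 622) and 21 UMIs in 9 of 35 WT cells (159 CPM, 98.4 to 243), a ratio of 2.86 (1.64 to 5.12). The share of cells with a UMI was 34.8% in Vsig4 KO and 25.7% in WT, 10.5% and 12.9% after thinning to 1000 UMIs, and 23.1% and 15% (3 of 13 and 3 of 20 cells) after thinning to 2000 UMIs. The order of the shares differed by depth, so none is read from them. Cells of 13 and 15 UMIs held most of the Vsig4 KO count, and a cell of 11 UMIs most of the WT count. Without the top member cell of each library the ratio was 4.35 (2.03 to 10.1), as that WT cell was then left out. In other macrophages Marco had 13 Vsig4 KO and 3 WT UMIs (7.17, 1.97 to 39.2), under the minimum of 20.

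Timd4, the phosphatidylserine receptor TIM-4 that marks long-lived Kupffer cells, differed by gate. Over all kept cells Timd4 (chromosome 11, 46810800 to 46844332) had 20 UMIs in 13 Vsig4 KO cells and 55 UMIs in 31 WT cells, a ratio of 0.409 (0.232 to 0.694). In Kupffer macrophages it had 11 UMIs in 5 Vsig4 KO cells and 14 UMIs in 11 WT cells, a ratio of 1.21 (0.497 to 2.87). The difference over all cells lay outside both gates, where 9 Vsig4 KO and 37 WT UMIs were found (0.267, 0.113 to 0.563). By class, most of the UMIs outside macrophages came from dendritic cells. The cDC2 class had 5 UMIs in 5 of 166 Vsig4 KO cells and 19 UMIs in 8 of 312 WT cells, and the cDC1 class had 3 UMIs in 2 of 83 Vsig4 KO cells and 12 UMIs in 5 of 137 WT cells. Within each class the interval of the ratio spanned 1 (0.122 to 1.16 in cDC2, 0.0675 to 1.38 in cDC1). Both classes were also a smaller part of the Vsig4 KO library, 3.03% against 4.81% of WT cells for cDC2 and 1.51% against 2.11% for cDC1. Of the 19 WT cDC2 UMIs, 8 came from 1 cell of 21063 UMIs that also had 12 UMIs of B cell genes. Without the cell with the most Timd4 UMIs in each library, the ratio over all kept cells was 0.383. The part of class sizes in the ratio was not tested.

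Folr2, folate receptor beta of resident and some tumour macrophages, was spread more widely over macrophages. Folr2 (chromosome 7, 101839988 to 101857194) had 57 UMIs in 27 of 208 Vsig4 KO macrophages and 53 UMIs in 28 of 353 WT macrophages, a ratio of 1.77 (1.20 to 2.62). In Kupffer macrophages it had 35 UMIs in 11 Vsig4 KO cells (408 CPM, 284 to 568) and 33 UMIs in 15 WT cells (249.9 CPM, 172 to 351), a ratio of 1.63 with an interval of 0.986 to 2.71. Over all kept cells the level was close, with 64 Vsig4 KO and 66 WT UMIs (1.09, 0.761 to 1.56).

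Of the secreted members, Fcna had most of its UMIs in Kupffer macrophages (81.4% in Vsig4 KO and 79.1% in WT) and Il18bp did not. Fcna encodes ficolin A, which starts the lectin pathway of complement, and lies on chromosome 2 at 25624666 to 25628030. It had 57 UMIs in 12 Vsig4 KO Kupffer macrophages (665 CPM, 504 to 862) and 53 UMIs in 13 WT Kupffer macrophages (401 CPM, 301 to 525), a ratio of 1.66 (1.12 to 2.46). A Vsig4 KO cell held 22 of these UMIs and a WT cell 24. Over all kept cells Fcna had 70 Vsig4 KO and 67 WT UMIs (1.18, 0.829 to 1.67). Il18bp, the secreted antagonist of interleukin 18 (chromosome 7, 102014885 to 102018690), had 33 UMIs in 10 Vsig4 KO Kupffer macrophages and 34 UMIs in 16 WT ones (1.5, 0.898 to 2.49). These were 32.7% of its 101 Vsig4 KO UMIs and 27.6% of its 123 WT UMIs, and the ratio over all kept cells was 0.924 (0.703 to 1.21).

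Vcam1 and Clec1b, which bind other cells, differed in opposite directions in Kupffer macrophages. Vcam1, the adhesion molecule that holds cells bearing the integrin VLA-4, lies on chromosome 3 at 116109949 to 116129688. It had 60 UMIs in 9 Vsig4 KO Kupffer macrophages (700.1 CPM, 534 to 901) and 23 UMIs in 10 WT ones (174 CPM, 110 to 261), a ratio of 4.02 (2.45 to 6.81). Cells of 27 and 20 UMIs held most of the Vsig4 KO count, while no WT cell held more than 5. Without the cell of each library richest in members the ratio was 2.40 (1.37 to 4.28), and with every cell given the same weight it was 1.22. In other macrophages Vcam1 had 68 Vsig4 KO and 54 WT UMIs, a ratio of 2.08 (1.44 to 3.04). Clec1b encodes CLEC-2, the podoplanin receptor best known from platelets, and lies on chromosome 6 at 129397297 to 129409335. It had 11 UMIs in 6 Vsig4 KO Kupffer macrophages (128 CPM, 64.1 to 230) and 29 UMIs in 17 WT ones (219.6 CPM, 147 to 315), a ratio of 0.584 with an interval of 0.263 to 1.21. In no Vsig4 KO or WT Kupffer macrophage did it pass 4 UMIs. By subset, macrophages with Cd5l only had 3 Vsig4 KO and 14 WT UMIs, while Clec4f-positive ones had 8 and 15 UMIs, a ratio on the other side of 1 (1.53, 0.561 to 3.84). The 55089 UMIs of these WT Clec4f-positive cells included cells of 20705 and 3694 UMIs with T cell RNA. Those cells held 1 and 0 Clec1b UMIs. The ratio was not recomputed without them, so no direction is read from it.

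**Figure D2:**
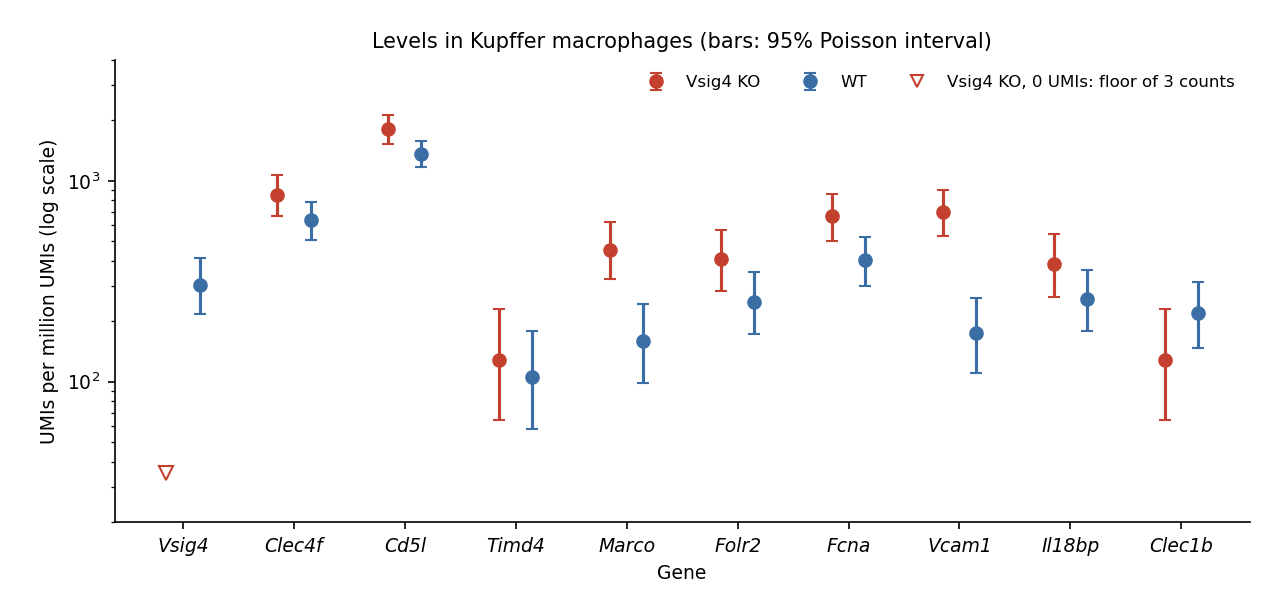
Levels of the 10 genes in Kupffer macrophages (y axis, CPM on a log scale) for the Vsig4 KO library (23 cells) and the WT library (35 cells), with 95% Poisson intervals. Vsig4 KO has 0 Vsig4 UMIs and is drawn at the floor of 3 counts, 35.0 CPM. The intervals of the libraries stand apart for Marco and Vcam1.

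Read against all genes, the members' count was near the background in Kupffer macrophages and above it in the macrophage gate. In Kupffer macrophages 6 of the 10 members were at least 1.5-fold apart, 4 higher in Vsig4 KO (Marco, Folr2, Fcna and Vcam1) and 2 lower (Vsig4 and Clec1b). Of all 1665 genes with at least 20 UMIs there, 44.7% were apart, 23.8% higher and 21% lower. In the macrophage gate 5 members were higher (Marco, Vcam1, Fcna, Folr2 and Il18bp) and 1 lower (Vsig4), against 5.97% of 8781 genes higher and 12.5% lower. Over all kept cells 2 were higher (Marco and Vcam1) and 2 lower (Vsig4 and Timd4), against 7.18% of 14884 genes higher and 7.31% lower. Among cells with Clec4f or Cd5l, whether macrophages or not, 2 were higher (Marco and Vcam1) and 2 lower (Vsig4 and Clec1b), against 22.3% of 2191 genes higher and 16.9% lower. The other macrophages had 20 UMIs for only 3 members, Folr2, Vcam1 and Il18bp, and all 3 were higher in Vsig4 KO, against 5.8% of 8524 genes. The intervals of Folr2 (0.948 to 3.51) and Il18bp (0.847 to 4.36) in those cells spanned 1. Ratios of CPM, with 10 added to both levels, had a log2 median over the 10 members of 0.49 in Kupffer macrophages, of 0.51 in the macrophage gate and of -0.01 over all kept cells. The same median over all genes was 0.03, -0.05 and 0.01. Both the count of 6 and the median of 0.49 in Kupffer macrophages include 4 WT cells with T or B cell RNA, described below. Without those cells Fcna and Folr2 were under 1.5-fold, and Clec4f, Cd5l and Timd4 were under 1. The median was not recomputed without them. The gates share cells, so these counts are not independent of each other.

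**Figure D3:**
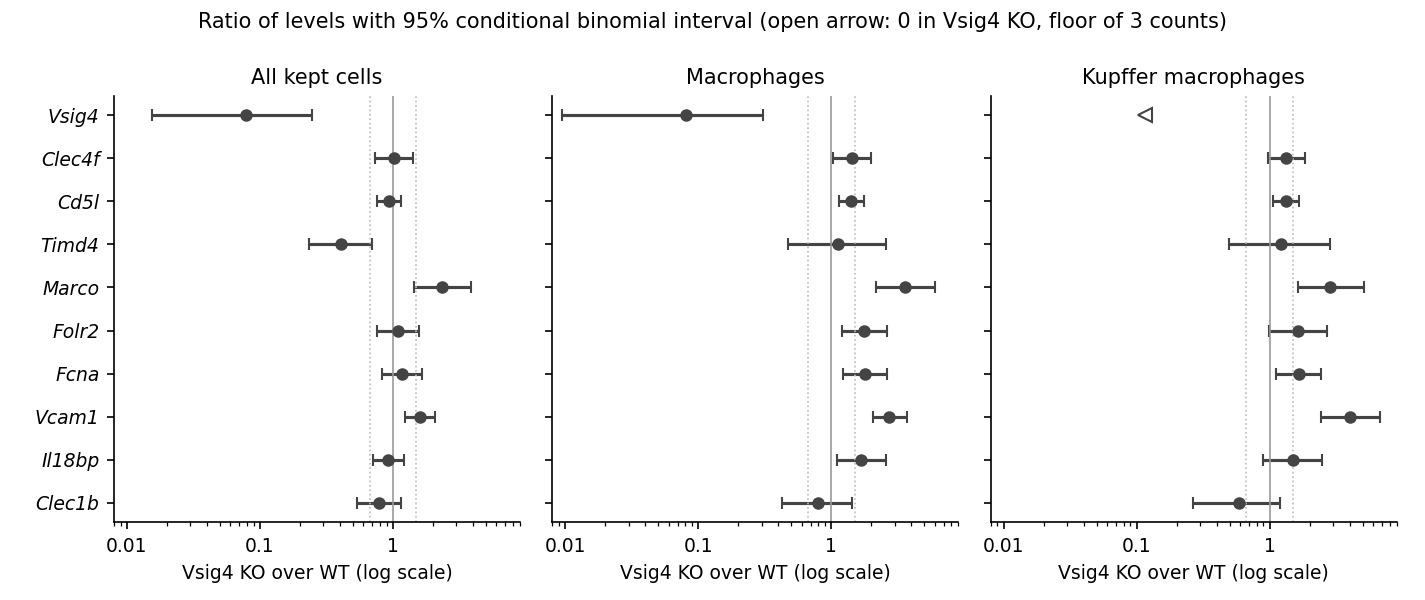
Ratio of levels, Vsig4 KO over WT (x axis, log scale), of each gene (rows) over all kept cells, in macrophages and in Kupffer macrophages, with 95% intervals, dotted lines at 1.5-fold and an arrow at the floor of 3 counts where Vsig4 KO has 0 UMIs. Marco and Vcam1 lie above 1 in all 3 panels, Timd4 lies below 1 only over all kept cells, and Vsig4 lies far below 1 throughout.

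A few cells decided several of these ratios. The Vsig4 KO cell of 8712 UMIs held 27 of the 60 Vcam1, 22 of the 57 Fcna, 13 of the 33 Il18bp and 13 of the 39 Marco UMIs of its group. The WT cell of 3294 UMIs held 24 of the 53 Fcna and 11 of the 21 Marco UMIs, and 6 of the 40 Vsig4 UMIs. In WT, 4 Kupffer macrophages also carried at least 3 UMIs of T cell genes (Cd3d, Cd3e, Cd3g, Trac) or B cell genes (among them Cd79a, Cd79b and Ms4a1). They had 3694 to 20705 UMIs, 16, 17 and 52 T cell list UMIs in 3 cells and 23 B cell list UMIs in the other. No Vsig4 KO Kupffer macrophage was of this kind, and over all of them the T cell list had 0 UMIs in Vsig4 KO and 85 in WT. By cluster these 4 WT cells lay outside the macrophage class, in the CD8 T cell, cDC2 and cycling classes and in an unnamed cluster. The 4 WT cells were not removed with the doublets, and whether they are doublets was not tested. The WT Kupffer macrophages held 132059 UMIs with these 4 cells and 84606 without them, and the WT levels of the members named next were higher without them. The ratio of Marco was then 1.92 (1.1 to 3.48), of Vcam1 2.58 (1.57 to 4.36), of Fcna 1.20 (0.799 to 1.80), of Folr2 1.28 (0.753 to 2.20), of Clec4f 0.924 and of Clec1b 0.418 (0.186 to 0.875). Vsig4 had 0 Vsig4 KO and 35 WT UMIs. Marco and Vcam1 were higher and Clec1b was lower in Vsig4 KO under each of these choices, although Vcam1 was under 1.5-fold with every cell weighted alike. Fcna was at least 1.5-fold higher without the top cells (2.02) and with every cell weighted alike (1.51), but not without the 4 WT cells, and Folr2 was under 1.5-fold under all 3 choices (1.34, 1.28 and 1.37).

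**Figure D4:**
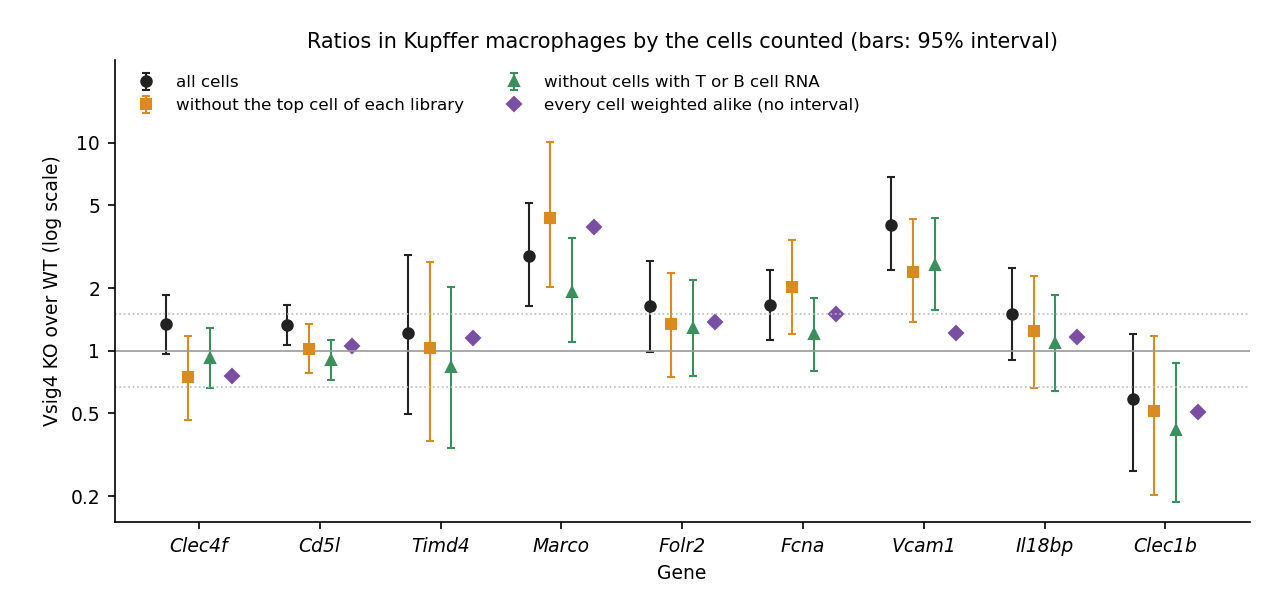
Ratio of levels in Kupffer macrophages, Vsig4 KO over WT (y axis, log scale), of the 9 genes other than Vsig4, with all cells, without the cell richest in members of each library, without cells with T or B cell RNA, and with every cell weighted alike. Marco stays above 1.5 and Clec1b below 1 in all of them, while Clec4f and Cd5l lie on both sides of 1.

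RNA of other cell types was also found in the Kupffer macrophages, in different amounts in each library. The T cell list stood at 0 CPM in Vsig4 KO and 644 CPM in WT, the erythroid list at 467 and 0 CPM, and the sinusoidal endothelium list at 245 and 189 CPM. In Kupffer macrophages the erythroid list had 40 UMIs in Vsig4 KO, all in 1 cell of 1677 UMIs with 14 Clec4f and 9 Fcna UMIs, and 0 in WT, although over all kept cells it had 109 UMIs in Vsig4 KO and 5025 in WT. The sinusoidal endothelium list had 21 Vsig4 KO and 25 WT UMIs, with 5 of its 10 genes present in each library and Lyve1, Ptprb and Egfl7 at 0 in both. Of these UMIs, 9 in Vsig4 KO and 11 in WT were of Cdh5, which is also found in Kupffer cells. Hepatocyte genes had 9 and 7 UMIs, melanoma genes 7 and 14, and of the platelet list Pf4 alone was present, while Ppbp, Itga2b, Gp9, Treml1 and Gp1bb were at 0 in both. The part of this RNA in the members' levels was not tested. In the B cell and T cell gates, which should lack the members, 0 to 0.199% of cells carried any member other than Il18bp (median depth 2786.5 and 4070 UMIs in Vsig4 KO, 2410 and 3674 in WT). Il18bp was seen in 0.648% and 0.832% of those cells in Vsig4 KO and in 0.693% and 1.21% in WT.

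Set against the other macrophages of the same library, the 8 members that the gate did not use were concentrated in Kupffer macrophages to unlike degrees. Vsig4 in Vsig4 KO had 0 UMIs there and 2 elsewhere. Fcna was 155-fold (62.6 to 495) higher in Vsig4 KO and 193-fold (71.1 to 734) higher in WT. Marco was 40.7-fold higher in Vsig4 KO and 102-fold in WT, Timd4 at least 49.8-fold in Vsig4 KO and 102-fold in WT, and Clec1b 21.3-fold in Vsig4 KO and 52.8-fold in WT. Il18bp was 29.9-fold and 38.1-fold higher, Folr2 21.6-fold and 24.0-fold. Vcam1 had the lowest folds, 12.0 (8.32 to 17.2) in Vsig4 KO and 6.21 (3.63 to 10.3) in WT. In WT Vsig4 was 583-fold higher, with 40 UMIs against 1 and an interval of 98.8 to 23585. Of all genes with at least 20 UMIs over both kinds of macrophage, 25.8% of 6053 in Vsig4 KO and 23.2% of 7673 in WT were at least 1.5-fold higher. Since clusters, gates and members rest on the same cells, these folds are a description.

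Of the other genes that stood highest over other macrophages in both libraries, 5 were on a list of 20 further Kupffer cell genes (Cdh5, C6, Fabp7, Slc40a1 and Hpgd). The 15 highest were Saa3, Apoc1, Cdh5, C4b, C6, Dmpk, Prg4, Fabp7, Ptgs1, Slc40a1, Slpi, Hpgd, Actn1, Il18 and Igf1. Apoc1, an apolipoprotein, had 128 UMIs in 14 Vsig4 KO cells and 86 UMIs in 21 WT cells, and was 217-fold and 62.6-fold above other macrophages. Slc40a1, the iron exporter ferroportin, had 27 and 26 UMIs (8.14-fold and 23.7-fold), and Il18, the cytokine that the product of Il18bp binds, had 16 and 8 UMIs (7.75-fold and 5.07-fold). Cdh5, an endothelial cadherin also found in Kupffer cells, had 9 UMIs in 3 Vsig4 KO cells and 11 UMIs in 8 WT cells. The acute phase gene Saa3 rested on 1 WT cell with 203 UMIs and on 2 Vsig4 KO cells, of which 1 held 55 of 65. Prg4 lay in 1 cell of each library. Single cells also held 18 of 21 Vsig4 KO and 100 of 103 WT UMIs of Slpi, 11 of the 12 Vsig4 KO UMIs of C6, 9 of the 11 of Dmpk and 7 of the 9 of Cdh5.

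Lists of related genes were counted among all cells with Clec4f or Cd5l. Of 20 other Kupffer cell genes 13 had enough UMIs, and 4 were higher in Vsig4 KO and 2 lower, with a median log2 ratio of 0.35 beside 0.04 over all genes. The higher ones were Cd38, an NAD-consuming ectoenzyme (2.34, 1.1 to 5.21), the terminal complement component C6 (1.73, with 11 of 13 Vsig4 KO UMIs in 1 cell), properdin Cfp (1.67, 1.12 to 2.51) and the mannose receptor Mrc1 (1.60). The lower ones were Hpgd, which degrades prostaglandins (0.517, 0.242 to 1.03), and the fatty acid carrier Fabp7 (0.556). Of 14 regulators 8 were measured. Id3, a factor that Kupffer cells need for their identity, was 3.59-fold higher (1.85 to 7.40, 35 Vsig4 KO and 13 WT UMIs, 16 of the 35 in 1 cell), Irf8 was 2.34-fold higher (1.22 to 4.62), and Maf was lower (0.580, 0.246 to 1.27). Spi1, which encodes PU.1, and Nr1h3, which encodes the oxysterol receptor LXR-alpha that Kupffer cell identity depends on, had ratios of 1.40 (0.883 to 2.23) and 1.33 (0.570 to 3.12). In Kupffer macrophages, 7 of 13 measured Kupffer cell genes were higher and 2 lower (median 0.59). There, 5 of 7 measured regulators were higher and 0 lower (median 0.79): Id3 (3.79), Irf8 (2.09), Spi1 (1.76, 1.09 to 2.86), Nr1h3 (1.54, 0.658 to 3.61) and, named after its value was seen, Zeb2 (1.75, 1.1 to 2.80). Maf was at 0.770 (0.305 to 1.81) in those cells, within 1.5-fold. The background there was 23.8% of genes higher and 21% lower, with a median of 0.03. These ratios in Kupffer macrophages include the 4 WT cells with T or B cell RNA and were not recomputed without them. Single cells also held much of these counts. In Vsig4 KO the highest cell held 16 of the 32 UMIs of Id3, 16 of the 40 of Spi1 and 14 of the 42 of Zeb2. In WT it held 15 of the 37 of Zeb2 and 8 of the 14 of Irf8. The ratios therefore need not describe most Kupffer macrophages. In the macrophage gate, 2 of 14 measured regulators were higher and 0 lower, with a median of -0.02 beside -0.05 over all genes. Spi1 (0.940), Irf8 (0.858), Nr1h3 (0.969), Zeb2 (0.985) and Id3 (1.17) were all within 1.5-fold in that gate.

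Of 15 genes of recruited macrophages 10 were measured, 4 higher and 3 lower, with a median of -0.13. Arg1, the arginase of tumour macrophages, had 60 Vsig4 KO and 34 WT UMIs (2.35, 1.52 to 3.70), but 1 Vsig4 KO cell held 49 of the 60 and 1 WT cell 20 of the 34. Cd9 and Chil3 were also higher, at 2.19 and 1.87, with 10 of 23 Vsig4 KO UMIs of Cd9 and all 14 of Chil3 in 1 cell each. Gpnmb, a glycoprotein of lipid-laden macrophages, had 6 Vsig4 KO and 35 WT UMIs (0.229, 0.0786 to 0.550). Fabp5 had 38 and 116 UMIs (0.437, 0.295 to 0.635, 49 of the 116 in 1 cell) and Trem2 8 and 19 (0.562). In the macrophage gate the ratios of Gpnmb, Fabp5 and Trem2 were 1.09, 1.22 and 1.40, and 2 of 15 measured recruited-macrophage genes were higher and 0 lower. Gpnmb was also a top gene of an unnamed cluster led by the melanoma genes Dct, Pmel and Tyrp1, which held 4 WT Cd5l UMIs. The part of tumour RNA in its count was not tested. Of 14 complement genes 8 were measured, with Cd55 (3.03, 1.44 to 6.83) and C3ar1 (1.58) higher and the receptor chain Itgam (0.522, 0.213 to 1.17, 18 of 23 WT UMIs in 1 cell) lower. Cd55 had 5 Vsig4 KO and 8 WT UMIs in Kupffer macrophages (0.963, 0.248 to 3.34), so its excess among cells with Clec4f or Cd5l lay outside the macrophage gate. In Kupffer macrophages 3 of 8 measured recruited-macrophage genes were higher and 2 lower (median 0.07), and 2 of 7 complement genes were higher and 1 lower (median 0.51). Among cells with Clec4f or Cd5l, C1qa, C1qb and C1qc, which set the macrophage gate, had ratios of 1.29, 1.15 and 1.22. In the macrophage gate, 3 of 15 measured Kupffer cell genes were higher and 2 lower. Chosen after their values were seen, these were the haemoglobin scavenger receptor Cd163 with 17 Vsig4 KO and 5 WT UMIs (5.60, 1.98 to 19.4, 11 of the 17 in 1 cell), Slc40a1 (2.82, 1.90 to 4.23, 24 of 72 Vsig4 KO UMIs in 1 cell) and C6 (1.98, 11 of 12 Vsig4 KO UMIs in 1 cell), and the lower Adgre4 (0.609) and Fabp7 (0.274). The background was 22.3% higher and 16.9% lower among cells with Clec4f or Cd5l, and 5.97% and 12.5% in the macrophage gate.

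The macrophage gate held most of the UMIs of Marco, Fcna, Folr2 and Vcam1 in both libraries, and a smaller share of those of Timd4, Il18bp and Clec1b. Its share was 96.3% of Marco UMIs in Vsig4 KO and 92.3% in WT, 88.6% and 85.1% of Fcna, 89.1% and 80.3% of Folr2, and 88.3% and 75.5% of Vcam1. It held 55.0% and 29.1% of Timd4, 47.5% and 38.2% of Il18bp and 36.0% and 52.1% of Clec1b UMIs. Il18bp reached 27.6 CPM (12.6 to 52.5) in Vsig4 KO and 42.9 CPM (23.4 to 72.0) in WT in mature dendritic cells, 9 UMIs in 9 of 64 cells and 14 UMIs in 12 of 63 cells. It was also spread thinly over lymphocytes, with 13 Vsig4 KO and 13 WT UMIs in B cells, 4 and 3 in CD4 T cells, 4 and 9 in CD8 T cells and 2 and 6 in NK cells. Clec1b had 9 UMIs in 9 of 83 Vsig4 KO and 9 of 137 WT cDC1 cells, and 8 Vsig4 KO and 7 WT UMIs in cDC2 cells. Its highest level, 298 CPM in Vsig4 KO and 356 CPM in WT, was in an unnamed cluster of 11 Vsig4 KO and 8 WT cells led by Igfbp7, Ptprb, Clec4g and Stab2, genes of sinusoidal endothelium, and rested on 5 and 4 UMIs. A Vsig4 KO plasma cell held 9 Vcam1 UMIs, and no WT plasma cell held any.

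**Figure D5:**
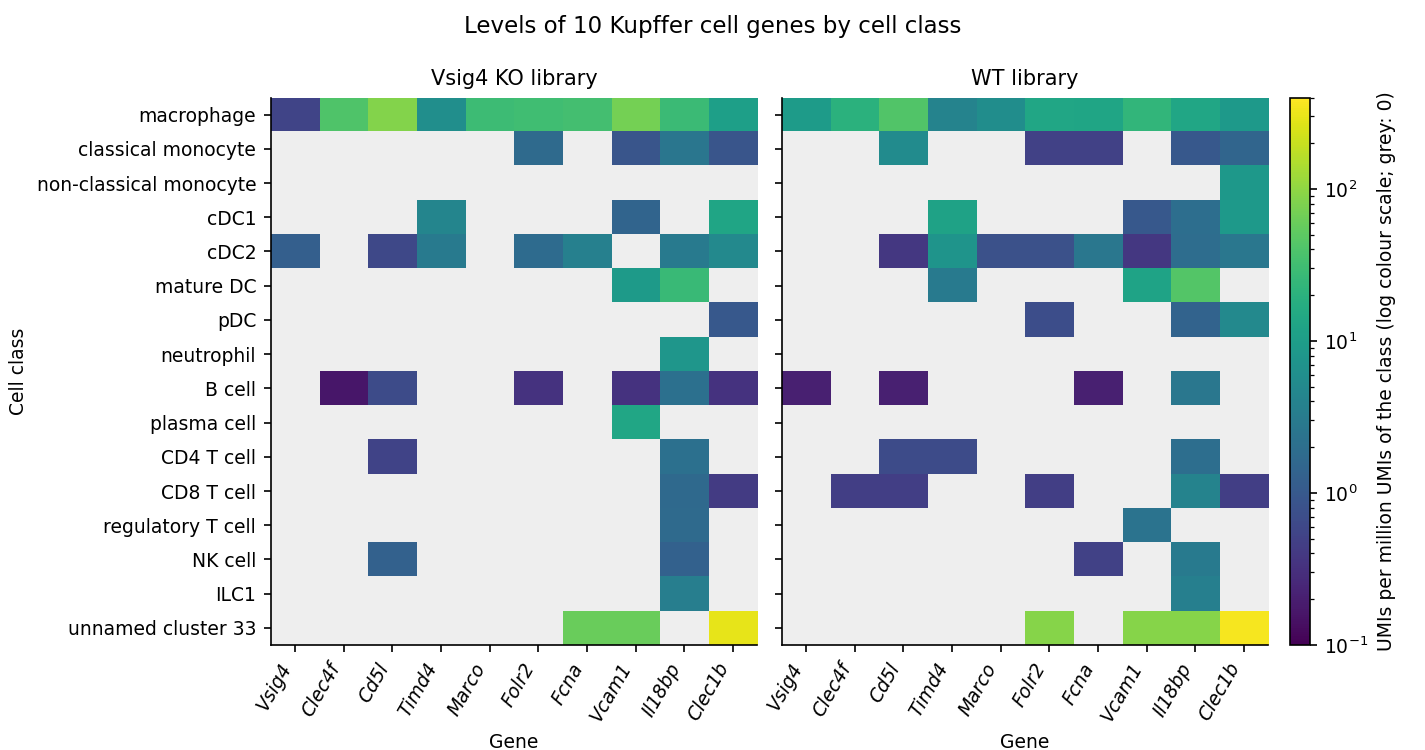
Levels of the 10 genes (columns) in a selection of cell classes (rows) of the Vsig4 KO and the WT library, in CPM of the class on a log colour scale, with grey for 0. The cycling class is not drawn. It held 5 Vsig4, 5 Clec4f and 6 Cd5l UMIs in WT, all in 1 cell of 20705 UMIs, and 0 of each in Vsig4 KO. The macrophage row is filled throughout, Timd4 and Clec1b extend into the cDC1 and cDC2 rows, and Il18bp extends into more rows than any other gene.

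Co-detection within macrophages showed which members travelled with the gate genes. In Vsig4 KO macrophages all 5 Timd4-positive cells had Cd5l and 4 of them Clec4f, while of 13 such WT cells 11 had Cd5l, 8 had Clec4f and 10 had Vsig4. Of the Marco-positive macrophages, 8 of 12 in Vsig4 KO and 9 of 12 in WT had Cd5l, and 8 of the WT cells had Vsig4. Fcna went with Cd5l in 12 of 16 Vsig4 KO and 13 of 16 WT cells. Clec1b went with Cd5l in 6 of 12 Vsig4 KO cells (50%, 21.1 to 78.9) and in 17 of 24 WT cells (70.8%, 48.9 to 87.4). Vcam1 was mostly seen without it, with Cd5l in 9 of 41 Vsig4 KO cells (22.0%, 10.6 to 37.6) and 10 of 42 WT cells (23.8%, 12.1 to 39.5), and Folr2 and Il18bp lay between.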

How the data were processed

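One library per genotype was analysed, Vsig4 KO and WT, grouped by the genotype in the labels. The matrices as deposited give UMI counts, whole and not normalized, for each gene in each barcode. Per the submitters' processing notes they were made with Cell Ranger 7.1.0 on mm10; the gene annotation used for counting is not given in the sources used here. Gene positions come from GENCODE M21 on mm10 and promoter windows from RefSeq on GRCm38.p6, both matched by identifier or symbol.

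Barcodes needed 200 genes, 500 UMIs and no more than 10% of mitochondrial UMIs, 5746 in Vsig4 KO and 6872 in WT. Scrublet, as run by scanpy 1.11.5 in Python 3.11.15, marked 1 Vsig4 KO and 0 WT cells by its own threshold and so did not work. Cells were instead ranked by score and the top ones discarded, 0.8% for every 1000 barcodes: 267 Vsig4 KO and 381 WT cells. Kept cells held 23358808 UMIs in Vsig4 KO and 26281210 in WT. Clusters came from 2000 variable genes (without the members), 30 principal components, 15 neighbours and leiden resolution 1.5 over both libraries together, and were named from marker lists.

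CPM values carry exact Poisson intervals, shares Clopper-Pearson intervals and ratios exact conditional binomial intervals (scipy 1.17.1). For a zero, the floor was 3 counts in the group as a whole, for levels and shares alike. The interval calculation was tested on simulated sums drawn with counting error only. That test holds no clustering of UMIs in single cells, so it does not show that the intervals cover the spread between cells. The B cell gate held cells with at least 3 UMIs of Cd79a, Cd79b and Ms4a1, the T cell gate cells with at least 3 of Cd3d, Cd3e and Cd3g, each without the other's genes and with fewer than 5 C1q UMIs.

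All members were named; list genes were named when at least 1.5-fold apart among cells with Clec4f or Cd5l, apart from a gene that is not reported here; other genes were the 15 with the highest lower value of both libraries' folds of Kupffer over other macrophages, and the 5 most like Vsig4 by Jaccard index. The members, lists and gates were chosen with earlier results of these data known. Alternatives were other barcode filters, no doublet removal, other gate thresholds, cells left out and another scaling.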

Additional observations from a re-analysis of the deposited data

How the results depend on the processing

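The number of members at least 1.5-fold apart among cells with Clec4f or Cd5l was 4, and it was 7 when at least 2 UMIs of Clec4f and Cd5l together were asked for; the cause was not tested. Of the other recomputed values, 52 of gates and counts and 296 of single genes stayed within 1.5 times or within their interval, and 19 of single genes moved further. Most of these 19 were the ratios of Clec4f and Cd5l, which fell on both sides of 1: over all kept cells they were 0.563 and 0.677 without the cell richest in each gene, in place of 1.02 and 0.936. No ratio that was at least 1.5-fold apart changed its direction under the alternatives run. Leaving out the cell richest in members, leaving out cells with T or B cell RNA and weighting cells alike were chosen after seeing the data. No paired analysis was possible because each genotype had 1 library and no test was run. Shares of cells with a UMI changed with depth and rest on few cells: thinned to 2000 UMIs, Fcna was seen in 53.8% and Il18bp in 7.69% of Vsig4 KO Kupffer macrophages, against 21.1% and 31.6% at 1000 UMIs, from 13 and 19 cells.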
